A study of Arabidopsis thaliana with 16 samples.

Results

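The 10 genes described here are the KNOX, BELL and WUS-CLV genes of the Arabidopsis thaliana shoot meristem: STM (AT1G62360), KNAT1 (AT4G08150), KNAT2 (AT1G70510), KNAT6 (AT1G23380), ATH1 (AT4G32980), PNY (AT5G02030), PNF (AT2G27990), WUS (AT2G17950), CLV1 (AT1G75820) and CLV3 (AT2G27250). They were taken by locus identifier from 33602 loci, after the counts of the transcript models of each locus were summed, and all 10 were found. Their RNA was measured by poly(A) sequencing in 16 libraries of the rosette region, 4 each from the strigolactone receptor mutant d14-7, the cytokinin oxidase double mutant ckx3 ckx5, the mutant of the GRAS transcription factor gene SCL28 (scl28), and wild type Col-0 (WT). The labels call the mutants knock outs and give no further allele and no treatment. Plants of all genotypes were grown in days of 16 h light and 8 h dark. The tissue of 2 to 3 plants with a bolt under 1 cm was pooled for every library, after leaves, roots and the elongated top of the stem were cut off, and the lower stem with its axillary meristems was kept. Of 5 pools collected per genotype, 4 were sequenced, chosen for RNA integrity. The d14-7, ckx3 ckx5 and WT plants were harvested 23 days after sowing and the scl28 plants 25 days after sowing, so that genotype and harvest day cannot be told apart for scl28. The series title links loss of SCL28, or of both oxidases, to fewer rosette branches, and d14 mutants are known for extra branches.

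Shoot meristems are small groups of dividing cells that give rise to leaves, branches and flowers. Class I KNOX homeodomain proteins (STM, KNAT1, KNAT2 and KNAT6) hold meristem cells in an undifferentiated state, and they work as heterodimers with BELL homeodomain proteins such as ATH1, PNY and PNF, which help to carry them into the nucleus. WUS is a homeodomain protein of the organizing centre that maintains the stem cells above it, and the stem cells secrete the CLV3 peptide, which limits WUS through receptor kinases such as CLV1. In the rosette, axillary meristems in the leaf axils form the buds from which branches grow.

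KNAT6 is the 1 member with counts on more than 1 transcript model in all 16 libraries, so the coding sequence around that junction is shown for its 2 expressed transcript models. The models share the end of the upstream exon, at position 8302172 of chromosome 1 on the minus strand, and differ by 6 bases at the start of the next exon, at chr1:8302028-8302033 (RefSeq annotation of TAIR10.1). The capitals mark those 6 bases, and the coding sequence is 984 bases long in model 1 and 990 bases in model 2.
KNAT6 model 1: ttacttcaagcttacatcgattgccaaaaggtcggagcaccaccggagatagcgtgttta
KNAT6 model 2: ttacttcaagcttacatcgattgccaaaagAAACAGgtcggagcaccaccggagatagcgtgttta
The promoters of STM and KNAT1 are shown because the levels of these genes deviated together most closely among libraries of 1 genotype, which other members shared in part. Whether the promoters play a part in this was not tested. Each is the 250 bases before the annotated start of the gene (RefSeq, TAIR10.1), read on the minus strand, at chr1:23062064-23062313 for STM and chr4:5151160-5151409 for KNAT1.
STM promoter: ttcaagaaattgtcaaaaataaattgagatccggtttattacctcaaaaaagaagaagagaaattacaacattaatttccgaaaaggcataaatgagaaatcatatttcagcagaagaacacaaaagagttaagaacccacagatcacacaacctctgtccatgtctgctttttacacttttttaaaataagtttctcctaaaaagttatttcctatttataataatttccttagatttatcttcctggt
KNAT1 promoter: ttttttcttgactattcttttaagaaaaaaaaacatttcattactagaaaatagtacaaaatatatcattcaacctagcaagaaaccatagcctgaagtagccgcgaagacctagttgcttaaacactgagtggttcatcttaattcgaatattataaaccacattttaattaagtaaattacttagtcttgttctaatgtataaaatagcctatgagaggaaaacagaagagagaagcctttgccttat
The letters TGACAG, a core bound by KNOX and BELL proteins, and TTAATGG, a site bound by WUS, were searched on both strands, and capitals would mark them. Neither occurred in the 250 bases before any of the 10 genes, while 5.86% of 27443 promoters of the same length held TGACAG and 6.99% held TTAATGG. No match says only that these letters are not in this window.

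Library totals ran from 24334925 to 36735056 counts, of which the 10 genes together made up 0.0395% to 0.0678%. Levels are given as CPM, which are counts scaled to a common library size. SCL28 was at 15.5 ± 1.95 CPM in scl28 and 36.5 ± 8.73 CPM in WT (SD, n = 4), while D14 averaged 30.5 ± 2.74 CPM in d14-7, against 41.2 ± 2.08 CPM in WT. D14 was as low in the ckx3 ckx5-labelled libraries (28.1 ± 1.69 CPM), so its level does not set the d14-7 libraries apart from these. In the ckx3 ckx5-labelled libraries CKX3 was higher than in WT (1.73 ± 0.22 against 0.339 ± 0.298 CPM). CKX5 did not differ from WT beyond its spread (2.83 ± 0.955 against 3.33 ± 1.87 CPM). These libraries are therefore named by their label and each direction given for them rests on it. The leaf score, an average of log2 CPM over 17 photosynthesis genes, spanned 10.26 to 10.58 in d14-7, 9.54 to 9.84 in the ckx3 ckx5-labelled libraries, 9.55 to 9.84 in scl28 and 9.52 to 10.56 in WT, whose libraries were spread most. Outside d14-7, only WT replicate 1 (10.56) reached the range of d14-7. Leaf score and genotype can therefore hardly be told apart for d14-7, while scl28 and the ckx3 ckx5-labelled libraries lay within the WT range. Adjustment for the score below may also take away a genotype difference, above all in comparisons with d14-7. Summed flower markers stood at 8.6 to 10.9 CPM in d14-7, 8.17 to 22.4 CPM in the ckx3 ckx5-labelled libraries, 10.6 to 15.9 CPM in scl28 and 6.25 to 9.46 CPM in WT, with none of the 6 at 0 in any group. The axillary meristem markers LAS, RAX1, RAX2 and RAX3 were all counted in every group and summed to 6.22 to 8.09 CPM in d14-7, 6.71 to 8.84 CPM in the ckx3 ckx5-labelled libraries, 12 to 14.7 CPM in scl28 and 9.95 to 16.7 CPM in WT. The part of flower and axillary tissue in the values below was not tested.

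STM, KNAT2, KNAT6, ATH1 and PNY fell in d14-7, the mutant with extra branches, and ATH1 was the member that changed in all 3 mutants. It was lower in d14-7 and higher in scl28 and in the ckx3 ckx5-labelled libraries. Its fall in d14-7 lost its call against WT replicates 3 and 4 alone and with only these groups in the model. KNAT2 was lower in d14-7 and higher in scl28, and KNAT1 and PNF were lower in the ckx3 ckx5-labelled libraries. CLV1 was higher in d14-7 and lower in the ckx3 ckx5-labelled libraries. WUS and CLV3 were counted at very low levels in every genotype. Here a gene is said to have risen or fallen where the quasi-likelihood test of edgeR gave an adjusted p under 0.05 over all 20947 loci tested, and changes are log2 fold changes ± standard error. By this rule 38.7% of all loci tested changed in d14-7, 29.6% in the ckx3 ckx5-labelled libraries and 19.8% in scl28, each against WT. In bulk tissue, fewer cells of a type and less RNA per cell cannot be told apart.

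**Figure D1:**
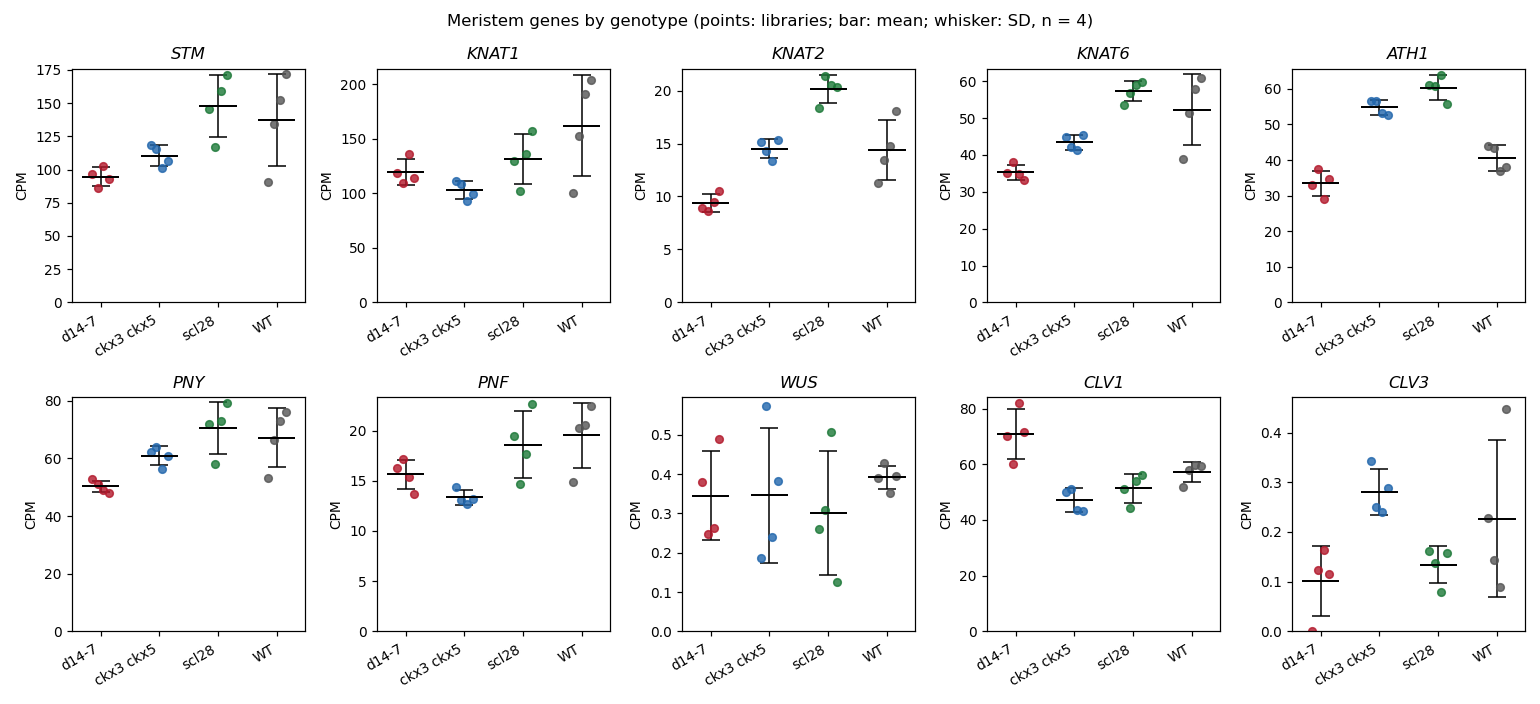
CPM (vertical axis, linear, from 0) of each of the 10 genes in d14-7, the ckx3 ckx5-labelled libraries, scl28 and WT, with a point per library, a bar at the mean and whiskers of 1 SD (n = 4). ATH1 lies at 29 to 37.5 CPM in d14-7 and 55.6 to 63.9 CPM in scl28, with WT at 37 to 44 CPM between them and meeting d14-7, and the WT points of STM and KNAT1 are widely spread.

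Compared per length in WT, as CPM per kilobase of the longest RefSeq transcript, the level was 80.4 ± 20.4 for STM and 80.3 ± 23.1 for KNAT1 (SD, n = 4). KNAT6 followed at 37.3 ± 6.93, PNY at 31 ± 4.72, ATH1 at 16.7 ± 1.48 and CLV1 at 16.1 ± 1.04. PNF stood at 8.81 ± 1.47 and KNAT2 at 7.92 ± 1.56. WUS, at 0.314 ± 0.0244, and CLV3, at 0.289 ± 0.202, were the lowest. In this order STM and KNAT1, KNAT6 and PNY, ATH1 and CLV1, PNF and KNAT2, and WUS and CLV3 lay within the larger of their SDs of each other.

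STM, which is required for the shoot meristem to form and persist, was at 96.4, 85.8, 103 and 92.7 CPM in d14-7 replicates 1 to 4. It was at 118, 115, 102 and 106 CPM in the ckx3 ckx5-labelled libraries, 146, 117, 159 and 171 CPM in scl28, and 90.3, 134, 152 and 172 CPM in WT. The d14-7 libraries were all below 3 of the WT libraries, and WT replicate 1 lay within them. STM fell in d14-7 (-0.54 ± 0.15, edgeR adjusted p = 0.0124) and stood at -0.31 ± 0.15 in the ckx3 ckx5-labelled libraries (adjusted p = 0.13) and 0.11 ± 0.15 in scl28 (adjusted p = 0.648). The fall in d14-7 was smaller or lost its call in some other settings. With the leaf score, which hardly overlapped between d14-7 and the other genotypes, as a covariate in the model it was -0.15 (adjusted p = 0.443). It was -0.25 when set against only WT replicates 1 and 2 (0.307), and without WT replicate 4 it was -0.41 (0.0539). With only these groups in the model the fall was of like size but not called (-0.53, edgeR adjusted p = 0.0521). Between mutants, STM was lower in d14-7 than in scl28 (-0.65 ± 0.15, edgeR adjusted p = 0.00289, and -0.08 after adjustment for the leaf score, adjusted p = 0.735).

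KNAT1, known as BREVIPEDICELLUS for its role in stem and pedicel growth, was at 119, 109, 136 and 114 CPM in d14-7 and 111, 109, 93.2 and 99.4 CPM in the ckx3 ckx5-labelled libraries. It was at 129.6, 102, 136 and 157 CPM in scl28 and 100.3, 153, 191 and 204 CPM in WT. WT replicates 2 to 4 lay above every library of d14-7 and of the label ckx3 ckx5. WT replicate 1 lay below every d14-7 library and among the ckx3 ckx5-labelled libraries. KNAT1 fell in the ckx3 ckx5-labelled libraries (-0.65 ± 0.17, edgeR adjusted p = 0.00927), a call that was lost when set against only WT replicates 1 and 2 (-0.29, adjusted p = 0.256). In d14-7 it stood at -0.44 ± 0.17 (adjusted p = 0.0516) and was called lower without WT replicate 1 (-0.61, adjusted p = 0.00098) or d14-7 replicate 3 (-0.51, 0.045). In scl28 it stood at -0.30 ± 0.17 (0.228). After adjustment for the leaf score these were 0.02 (adjusted p = 0.945) in d14-7 and -0.51 (0.00243) in scl28.

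**Figure D2:**
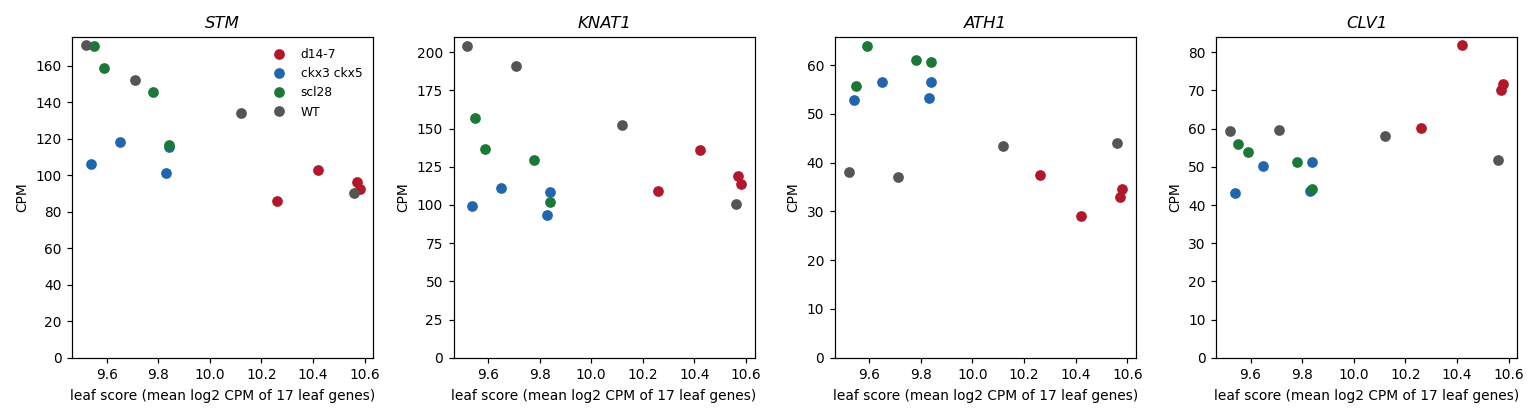
CPM of STM, KNAT1, ATH1 and CLV1 (vertical axes, from 0) against the leaf score (horizontal axis, mean log2 CPM of 17 leaf genes), with a point per library coloured by genotype. In WT, the library with the highest leaf score (10.56) has the lowest STM and KNAT1, at 90.3 and 100.3 CPM, and the library with the lowest (9.52) has the highest, at 172 and 204 CPM.

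Among libraries of the same genotype STM and KNAT1 deviated together, with a Pearson r of 0.99 between their log2 CPM deviations from the genotype mean over 16 libraries, which share depth and tissue cut. Other members also deviated with STM, from 0.66 for KNAT2 to 0.93 for PNY, while WUS and ATH1 stood at -0.1 and -0.54. For the closest pair, the level of KNAT1 divided by that of STM in the same library was compared, a measure chosen after the values were seen. It was 1.23, 1.27, 1.32 and 1.23 in d14-7, 0.939, 0.942, 0.918 and 0.935 in the ckx3 ckx5-labelled libraries, 0.89, 0.872, 0.859 and 0.919 in scl28, and 1.11, 1.14, 1.25 and 1.19 in WT. All libraries of scl28 and of the label ckx3 ckx5 lay below all of WT and of d14-7, while d14-7 and WT overlapped. The log2 ratio differed from WT by -0.33 in the ckx3 ckx5-labelled libraries and -0.41 in scl28, each with a 2-sided exact permutation p of 0.0286, the smallest that 4 against 4 libraries can give. Over the 42 tests of 7 ratios to STM in 6 comparisons the adjusted p (Benjamini-Hochberg) of these was 0.0801, and 0 of the 42 were under 0.05, while 15 had an unadjusted exact p under it. With 4 libraries a group, an adjusted p under 0.05 needed most of the 42 tests to reach the smallest p, so this adjustment could hardly call any. The tests also share STM and libraries. In d14-7 the difference from WT was 0.11 (exact permutation p = 0.0857, adjusted p = 0.156).

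**Figure D3:**
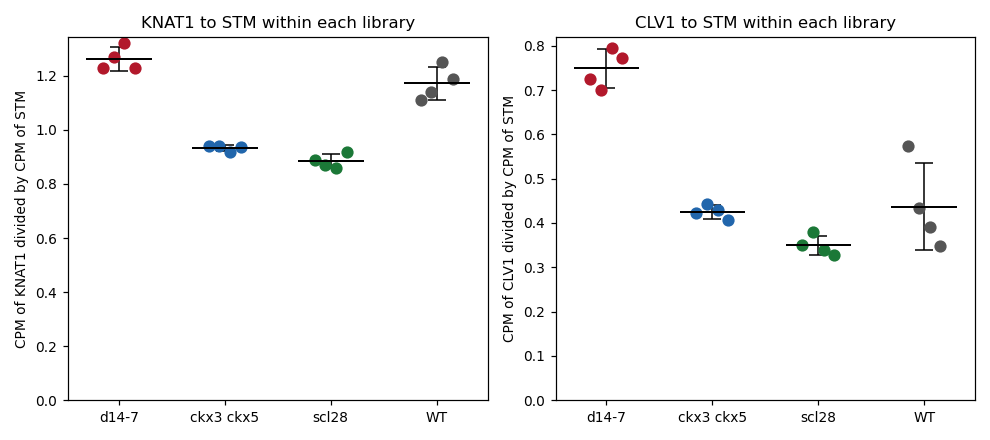
Level of KNAT1 (left) and CLV1 (right) divided by that of STM in the same library (vertical axes, linear, from 0), by genotype, with the mean and 1 SD (n = 4). The KNAT1 ratio lies at 0.859 to 0.942 in scl28 and the ckx3 ckx5-labelled libraries and at 1.11 to 1.32 in d14-7 and WT, and the CLV1 ratio of d14-7 lies at 0.701 to 0.796, above the 0.328 to 0.574 of all other libraries.

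KNAT2, a class I KNOX gene linked to carpel and pedicel development, was at 8.94, 8.63, 9.51 and 10.5 CPM in d14-7 and 15.1, 14.3, 13.4 and 15.3 CPM in the ckx3 ckx5-labelled libraries. It was at 18.3, 21.4, 20.5 and 20.3 CPM in scl28 and 11.3, 13.4, 14.7 and 18.1 CPM in WT. Neither d14-7 nor scl28 overlapped WT, and they lay on opposite sides of it. KNAT2 fell in d14-7 (-0.61 ± 0.12, edgeR adjusted p = 0.00105) and rose in scl28 (0.48 ± 0.11, adjusted p = 0.00636), and it was lower in d14-7 than in scl28 by the largest difference of any member (-1.10 ± 0.11, adjusted p = 2.36e-06). Both calls against WT held after adjustment for the leaf score (-0.37, adjusted p = 0.0317, in d14-7 and 0.37, adjusted p = 0.00477, in scl28), and the call in scl28 was lost with only these groups in the model (0.47, adjusted p = 0.0554). In the ckx3 ckx5-labelled libraries KNAT2 stood at 0.01 ± 0.11 (adjusted p = 0.948). The order of the means was scl28, the label ckx3 ckx5, WT and d14-7, in which the label ckx3 ckx5 and WT did not differ beyond their spread.

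KNAT6, which acts with STM in maintaining the meristem and the boundaries of organs, was at 35.1, 37.9, 34.9 and 33.1 CPM in d14-7 and 44.9, 42.1, 41.4 and 45.4 CPM in the ckx3 ckx5-labelled libraries. It was at 53.7, 56.9, 58.9 and 59.8 CPM in scl28 and 39, 51.3, 57.9 and 60.9 CPM in WT. Every d14-7 library lay below every other library. KNAT6 fell in d14-7 (-0.57 ± 0.10, edgeR adjusted p = 0.000703), also after adjustment for the leaf score (-0.29, adjusted p = 0.00452). It stood at -0.27 ± 0.10 in the ckx3 ckx5-labelled libraries (adjusted p = 0.0552) and 0.13 ± 0.10 in scl28 (0.384). In scl28 it was called higher when WT was limited to replicates 1 and 2 (0.34, adjusted p = 0.021) and was at -0.05 when WT was limited to replicates 3 and 4 (0.616). The log2 ratio of KNAT6 to STM differed between genotypes by at most 0.08 in either direction, with exact permutation p-values of 0.457 to 0.914.

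Of the KNAT6 transcript models shown above, model 2, with the 6 extra bases, took 7.06 ± 1.73% of the counts of the locus in d14-7, 10.9 ± 3.09% in the ckx3 ckx5-labelled libraries, 11.9 ± 2.02% in scl28 and 7.97 ± 2.86% in WT (SD, n = 4). In single libraries it had 38, 102, 86 and 83 counts in d14-7, 146, 87, 157 and 211 in the ckx3 ckx5-labelled libraries, 211, 237, 233 and 190 in scl28, and 132, 84, 103 and 226 in WT. The groups of d14-7 and scl28 did not overlap in this share, and all other pairs did. The share differed by -4.85 percentage points between d14-7 and scl28 (2-sided exact permutation p = 0.0286, the smallest possible, adjusted over 6 comparisons 0.172). No other pair had an exact p under 0.05 (0.0857 to 0.657). When edgeR was fitted to transcript models, which tests levels and not shares, model 2 was lower in d14-7 than in the ckx3 ckx5-labelled libraries (-0.93 ± 0.27, adjusted p = 0.0186). Model 1 was not called there (-0.24 ± 0.11, edgeR adjusted p = 0.126). These shares rest on the authors' estimate of counts per model.

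ATH1, a BELL protein that helps to keep the rosette compact by restraining stem growth, was at 33, 37.5, 29 and 34.6 CPM in d14-7 and 56.5, 56.5, 53.3 and 52.8 CPM in the ckx3 ckx5-labelled libraries. It was at 61, 60.7, 63.9 and 55.6 CPM in scl28 and 44, 43.4, 37 and 38.1 CPM in WT. All libraries of scl28 and of the label ckx3 ckx5 lay above all of WT, and d14-7 overlapped WT through replicate 2. ATH1 rose in scl28 (0.57 ± 0.08, edgeR adjusted p = 0.000106) and in the ckx3 ckx5-labelled libraries (0.43 ± 0.08, adjusted p = 0.000523) and fell in d14-7 (-0.28 ± 0.08, adjusted p = 0.0126). The 2 rises held their call in every alternative run, while the fall was lost against WT replicates 3 and 4 alone (-0.16, adjusted p = 0.133) and with only these groups in the model (-0.27, adjusted p = 0.0563). Between mutants ATH1 was lower in d14-7 than in scl28 (-0.85 ± 0.08, adjusted p = 6.38e-07) and than in the ckx3 ckx5-labelled libraries (-0.71 ± 0.08, adjusted p = 3.49e-06). The difference between scl28 and the ckx3 ckx5-labelled libraries was 0.14 ± 0.08 (adjusted p = 0.209).

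PNY, also called BELLRINGER, is a BELL partner of class I KNOX proteins. It was at 52.7, 51, 49.2 and 48.1 CPM in d14-7, 62.3, 64.1, 56.4 and 61 CPM in the ckx3 ckx5-labelled libraries, 72.1, 57.9, 73.1 and 79.1 CPM in scl28, and 53.1, 66.3, 73 and 76.2 CPM in WT. The d14-7 libraries lay just below the lowest WT library. PNY fell in d14-7 (-0.42 ± 0.10, edgeR adjusted p = 0.00556), which was -0.19 after adjustment for the leaf score (adjusted p = 0.165) and -0.25 when set against only WT replicates 1 and 2 (0.141). It stood at -0.14 ± 0.10 in the ckx3 ckx5-labelled libraries (adjusted p = 0.315) and 0.07 ± 0.10 in scl28 (0.67).

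PNF, the close relative of PNY that acts with it in floral transition, was at 16.3, 17.1, 15.4 and 13.7 CPM in d14-7 and 14.4, 13.1, 12.7 and 13.2 CPM in the ckx3 ckx5-labelled libraries. It was at 19.4, 14.7, 17.7 and 22.7 CPM in scl28 and 14.9, 20.2, 20.6 and 22.5 CPM in WT. The ckx3 ckx5-labelled libraries all lay below WT. PNF fell there (-0.55 ± 0.13, edgeR adjusted p = 0.00448), a call lost against WT replicates 1 and 2 alone (-0.39, adjusted p = 0.0785), and it was higher in scl28 than in the ckx3 ckx5-labelled libraries (0.48 ± 0.13, adjusted p = 0.012). In d14-7 it stood at -0.32 ± 0.13 (adjusted p = 0.0567, and -0.43 with 0.0047 without WT replicate 1) and in scl28 at -0.07 ± 0.13 (0.741).

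CLV1, the receptor kinase that perceives CLV3, was at 70, 60.2, 82 and 71.7 CPM in d14-7, 50.1, 51.3, 43.6 and 43.2 CPM in the ckx3 ckx5-labelled libraries, 51.2, 44.3, 53.9 and 56.1 CPM in scl28, and 51.8, 58, 59.7 and 59.5 CPM in WT. Every d14-7 library lay above every other library, but the lowest of them (60.2 CPM) only just above the highest of WT (59.7 CPM). The ckx3 ckx5-labelled libraries lay below WT by a gap that was narrow as well. CLV1 rose in d14-7 (0.31 ± 0.09, edgeR adjusted p = 0.0175) and fell in the ckx3 ckx5-labelled libraries (-0.28 ± 0.09, adjusted p = 0.0319), and it stood at -0.16 ± 0.09 in scl28 (0.263). The call in d14-7 was lost without d14-7 replicate 3 (0.23, adjusted p = 0.0582) and against either pair of WT libraries (0.37 with adjusted p = 0.0515, and 0.26 with 0.0638). The call in the ckx3 ckx5-labelled libraries was lost without WT replicate 2, 3 or 4 or without ckx3 ckx5 replicate 3 or 4 (adjusted p of 0.0684 to 0.0983). Divided by STM in the same library, CLV1 was 0.749 ± 0.0432 in d14-7 and 0.436 ± 0.0981 in WT (SD, n = 4), a log2 difference of 0.80 with no overlap (2-sided exact permutation p = 0.0286, the smallest possible, adjusted over the 42 tests 0.0801).

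WUS and CLV3 were near the limit of detection, and neither was called by edgeR in any comparison. WUS had 9, 8, 8 and 17 counts in d14-7, 6, 16, 8 and 12 in the ckx3 ckx5-labelled libraries, 8, 9, 19 and 4 in scl28, and 12, 12, 12 and 15 in WT. Its log2 fold changes against WT were -0.17 ± 0.41, -0.19 ± 0.41 and -0.35 ± 0.41 in d14-7, the ckx3 ckx5-labelled libraries and scl28 (edgeR adjusted p of 0.757, 0.752 and 0.59). CLV3 had 0, 4, 5 and 4 counts in d14-7, 11, 7, 8 and 9 in the ckx3 ckx5-labelled libraries, 5, 4, 3 and 5 in scl28, and 7, 4, 3 and 17 in WT, and it did not pass the filter on low counts. Pooled over the 4 libraries, CLV3 was at 0.107 CPM in d14-7 (exact 95% Poisson interval 0.0572 to 0.184), 0.281 CPM in the ckx3 ckx5-labelled libraries (0.196 to 0.391), 0.132 CPM in scl28 (0.0767 to 0.211) and 0.237 CPM in WT (0.161 to 0.337), intervals that cover counting error only. The CLV3 libraries of d14-7 and of scl28 did not overlap those labelled ckx3 ckx5, and the pooled intervals of d14-7 and the ckx3 ckx5-labelled libraries did not meet. In WT, 18 of the 31 CLV3 counts were on transcript model 2, and 16 of these came from replicate 4, while the mutant libraries had counts on model 3 alone. Without a filter, edgeR gave CLV3 a log2 fold change of -1.41 in d14-7 against the ckx3 ckx5-labelled libraries (adjusted p = 0.132, and 0.082 by DESeq2). Its adjusted p was 0.238, 0.79 and 0.472 in d14-7, the ckx3 ckx5-labelled libraries and scl28 against WT.

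**Figure D4:**
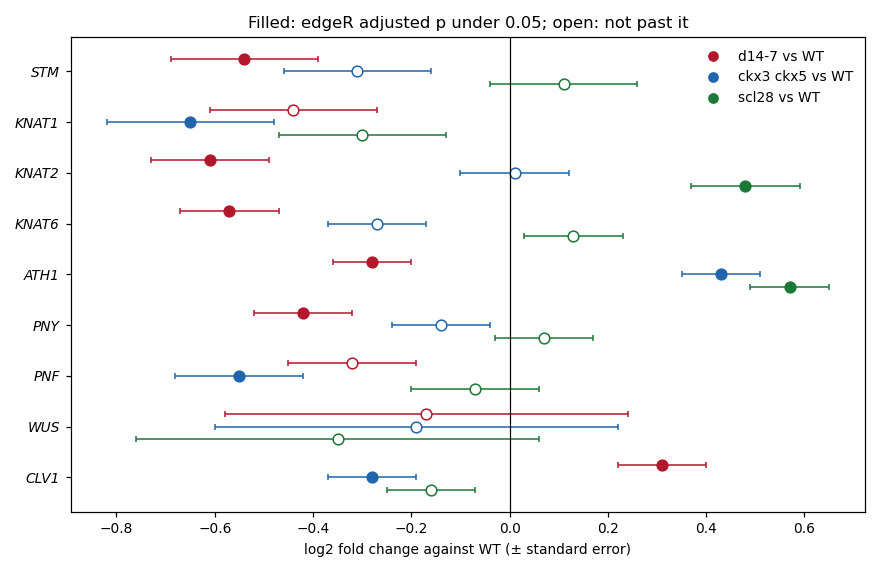
Log2 fold change against WT (horizontal axis, ± standard error) of the 9 tested genes in d14-7, the ckx3 ckx5-labelled libraries and scl28, filled where the edgeR adjusted p was under 0.05. ATH1 is the gene with a filled point in all 3 comparisons, at -0.28 in d14-7 and at 0.43 and 0.57 in the others.

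In d14-7 against WT, 5 of the 9 tested members fell (STM, KNAT2, KNAT6, ATH1 and PNY) and CLV1 rose. Over all loci tested 38.7% changed, 20.6% down and 18.1% up, and the members' median of -0.42 stands beside a median of -0.01 over all loci. The groups did not overlap for 4 members, beside 26.8% of all loci. KNAT2, KNAT6, ATH1 and CLV1 kept their call after adjustment for the leaf score, and with WT replicates 1 and 2 only 3 members were called in place of 6 (KNAT2, KNAT6 and ATH1).
The counts of related genes below stand beside the 38.7% of all loci that changed in d14-7 against WT. Of 9 regulators and partners of KNOX and BELL proteins 1 rose and 5 fell, with a median of -0.37. The boundary gene BOP2 stood at -0.84 ± 0.12 (edgeR adjusted p = 0.000121), OFP1, whose protein binds KNOX and BELL proteins, at -0.57 ± 0.08 (0.000163), AS2, a leaf factor that represses KNOX genes, at -0.37 ± 0.08 (0.00226) and BOP1 at -0.50 ± 0.14 (0.0107). Of 7 genes reported as KNOX outputs 0 rose and 3 fell, all in gibberellin metabolism, namely GA2OX2 (-1.67 ± 0.22), which encodes an inactivating enzyme, GA2OX4 (-1.12 ± 0.31) and the synthesis gene GA20OX1 (-0.58 ± 0.18). Since the list holds genes of gibberellin synthesis and of inactivation, its count is no measure of KNOX activity. Among 10 other BELL genes 4 rose and 1 fell, with SAW1 at 0.72 ± 0.11, SAW2 at 0.70 ± 0.16, BEL1 at 0.65 ± 0.13 and BLH1 at -0.77 ± 0.12. Of the axillary meristem markers 3 of 4 fell, with RAX1, RAX2 and RAX3 at -1.10 ± 0.25, -0.95 ± 0.15 and -1.03 ± 0.23, and 7 of 17 leaf markers rose with 0 down. SEP3 rose among 6 flower markers (1.28 ± 0.48), XCP1 and XCP2 among 7 vascular markers (0.46 ± 0.08 and 0.42 ± 0.06), and PYK10, the 1 root marker of 3 that was tested (0.94 ± 0.15), with RHD6 at 0 in d14-7 and in WT.
In the other lists KNAT5 fell among 5 other KNOX genes (-0.31 ± 0.07). WOX5 rose (1.59 ± 0.36) and WOX13 fell (-0.20 ± 0.06) among 8 tested of 14 WOX genes, the family of WUS. CRN (0.27 ± 0.06), a partner of the receptor CLV2, and the CLV1 relative BAM2 (0.41 ± 0.13) rose among 8 tested of 9 CLV signalling genes. HAM3 rose (0.45 ± 0.11) and HAM4 fell (-0.60 ± 0.12) among 4 HAM genes, whose proteins bind WUS.

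In the ckx3 ckx5-labelled libraries against WT, 3 of the 9 tested members fell (KNAT1, PNF and CLV1) and ATH1 rose. Over all loci tested 29.6% changed, 16.0% down and 13.6% up, and the members' median was -0.27 beside 0.01 over all loci. The groups did not overlap for 3 members, beside 26.8% of all loci. Without WT replicate 1 the count was 7 in place of 4, with STM (-0.47, edgeR adjusted p = 0.00339), KNAT6 (-0.38, 0.000305) and PNY (-0.24, 0.034) added, and against WT replicates 1 and 2 alone ATH1 was the 1 member called.
The counts of the other lists here stand beside the 29.6% of all loci that changed. Among the other BELL genes 2 of 10 rose and 5 fell, with BLH1 at -0.92 ± 0.12 (edgeR adjusted p = 2.42e-05), BLH7 at 0.28 ± 0.05 (0.000321), BLH3 at -0.49 ± 0.11 (0.00226) and BEL1 at -0.53 ± 0.13 (0.00669). Of the 9 regulators and partners AS2 fell (-0.76 ± 0.08, adjusted p = 2.84e-06) and CUC2, a boundary gene, rose (0.54 ± 0.18, 0.0333). Of the 7 reported outputs GA20OX1 rose (0.52 ± 0.17) and 3 fell: the lignin genes CCOAOMT1 (-0.63 ± 0.07) and COMT1 (-0.31 ± 0.08), and the cytokinin synthesis gene IPT7, which was at 0.0243 CPM in these libraries and 0.564 CPM in WT. HAM4 fell (-0.71 ± 0.12), as did KNAT5 (-0.27 ± 0.07), WOX13 (-0.26 ± 0.06) and the CLV1 relative BAM1 (-0.24 ± 0.09), while WOX5 (1.25 ± 0.36) and CRN (0.24 ± 0.06) rose. These were the changed genes of the HAM, other KNOX, WOX and CLV signalling lists. The flower markers LFY, AP1, AP3 and PI rose (4 of 6, 0 fell), RAX1 and RAX2 fell among the axillary meristem markers, and 5 of 17 leaf markers fell. XCP1 and XCP2 rose among the vascular markers (0.43 ± 0.08 and 0.32 ± 0.06), and of the root markers PYK10 was not called and EXPA7 was at 0 in these libraries.

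In scl28 against WT, 2 of the 9 tested members rose (KNAT2 and ATH1) and 0 fell. Over all loci tested 19.8% changed, 9.30% up and 10.5% down, and the members' median was 0.07 beside 0.01 over all loci. The groups did not overlap for 2 members, beside 18.8% of all loci. KNAT1 stood at -0.30 ± 0.17 and was called lower without WT replicate 1 (-0.47, edgeR adjusted p = 0.0118).
The counts of the other lists here stand beside the 19.8% of all loci that changed. Of the 9 regulators and partners 5 rose and 0 fell, led by the boundary gene CUC3 at 1.24 ± 0.14 (edgeR adjusted p = 2.83e-05), with OFP1 at 0.31 ± 0.08 (0.0162), CUC2 at 0.64 ± 0.18 (0.0209) and AS1, which represses KNOX genes in leaves, at 0.26 ± 0.08 (0.034). The 7 reported outputs, genes of unlike roles, had a median of 0.03, and edgeR called no member of that list. CRN rose (0.38 ± 0.06) among the CLV signalling genes, HAM2 (0.21 ± 0.07) among the HAM genes, and WOX5 (1.08 ± 0.37) rose and WOX14 (-0.90 ± 0.25) fell among the WOX genes. Of the other BELL genes 3 rose and 2 fell, with BEL1 at -0.54 ± 0.13, BLH3 at -0.41 ± 0.11, BLH7 at 0.15 ± 0.05 and BLH10 at 0.26 ± 0.09. Among markers, LFY and AP1 rose, 2 of 17 leaf markers fell, and 0 of 4 axillary meristem markers were called. The vascular marker XCP1 (-0.35 ± 0.08) and the root marker PYK10 (-0.76 ± 0.15) fell.

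Set directly against each other, d14-7 stood apart from scl28 by 6 members and from the ckx3 ckx5-labelled libraries by 5. In d14-7 against scl28 STM, KNAT2, KNAT6, ATH1 and PNY fell and CLV1 rose (0.47 ± 0.09, edgeR adjusted p = 0.000974), beside 42.5% of all loci changed, 22.5% down and 20.0% up. The groups did not overlap for these 6 members, beside 40.4% of all loci. PNY stood at -0.49 ± 0.10 (adjusted p = 0.00124), and after adjustment for the leaf score at -0.14 (0.389). PNF stood at -0.25 ± 0.13 (adjusted p = 0.126) and was called without scl28 replicate 2 (-0.35, 0.0346), while KNAT1 stood at -0.14 ± 0.17 and turned to 0.53 with that covariate (adjusted p = 0.028). In the same comparison 16 of 17 leaf markers, 4 of 7 vascular markers and the root marker PYK10 rose, while 4 of 4 axillary meristem markers and 2 of 6 flower markers fell.
In d14-7 against the ckx3 ckx5-labelled libraries KNAT2 (-0.63 ± 0.12), KNAT6, ATH1 and PNY fell and CLV1 rose (0.59 ± 0.09, edgeR adjusted p = 0.000137), beside 36.8% of all loci changed, 19.0% down and 17.8% up. The groups did not overlap for these 5 members, beside 41.4% of all loci. KNAT6 (-0.30 ± 0.10, adjusted p = 0.0281) lost its call without ckx3 ckx5 replicate 1 or 4 or without d14-7 replicate 1, 3 or 4. PNY (-0.28 ± 0.10, adjusted p = 0.0422) lost it without ckx3 ckx5 replicate 1, 2 or 4 or without any d14-7 replicate. After adjustment for the leaf score KNAT2 was at -0.28 (adjusted p = 0.125), and KNAT6 and PNY turned to 0.10 and 0.06 (0.328 and 0.716). Of the markers 12 of 17 leaf, 1 of 7 vascular and the root gene PYK10 rose here and 3 of 6 flower markers fell, while the 4 axillary meristem markers had a median of -0.33 and no edgeR call.
In scl28 against the ckx3 ckx5-labelled libraries KNAT2 (0.47 ± 0.11), KNAT6 (0.40 ± 0.10) and PNF (0.48 ± 0.13) rose and 0 fell, beside 24.7% of all loci changed, 13.1% up and 11.5% down. The groups did not overlap for these 3 members, beside 29.9% of all loci. STM stood at 0.42 ± 0.15 (edgeR adjusted p = 0.0501) and PNY at 0.21 ± 0.10 (0.145), and both were called without scl28 replicate 2 (0.52 with 0.0204, and 0.30 with 0.0336). Here 2 of 4 axillary meristem markers rose, and 3 of 17 leaf markers, 2 of 7 vascular markers and PYK10 fell, while the 6 flower markers had a median of -0.42 and no edgeR call. The part of the markers in the member values was not tested beyond the adjustment for the leaf score. The comparisons share libraries and are not independent of each other.

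**Figure D5:**
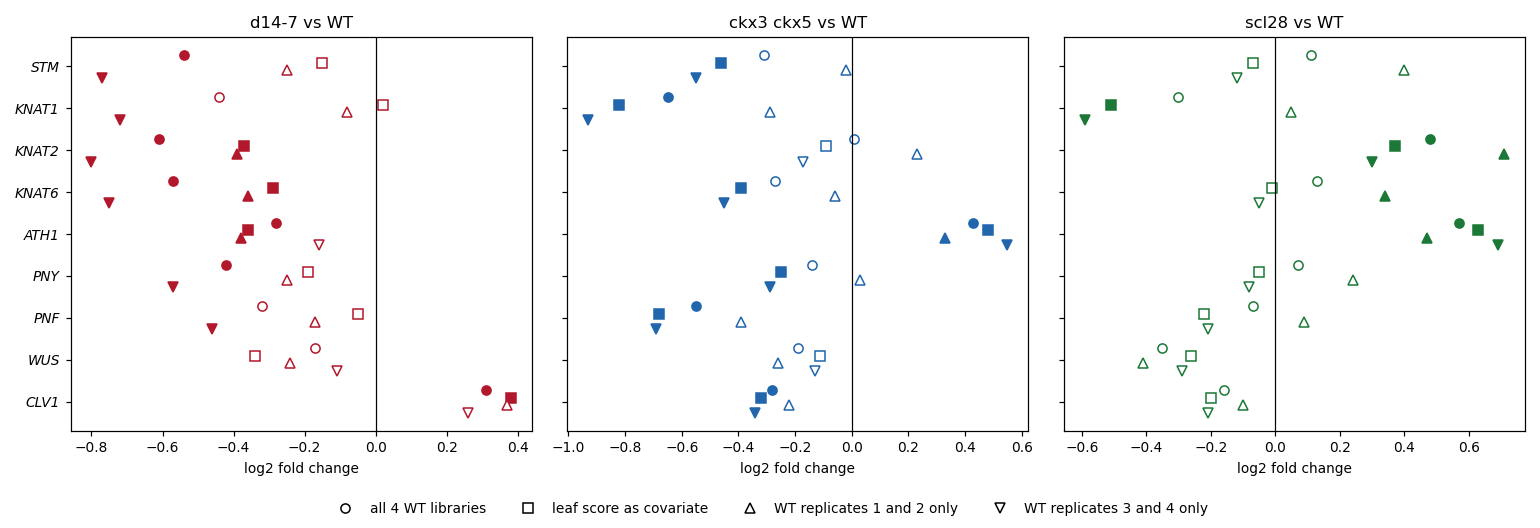
Log2 fold change against WT (horizontal axis) of the 9 tested genes in d14-7, the ckx3 ckx5-labelled libraries and scl28, with all 4 WT libraries, after adjustment for the leaf score, and with WT cut to replicates 1 and 2 or to 3 and 4, filled where the edgeR adjusted p was under 0.05. ATH1 in scl28 stays between 0.47 and 0.69 and filled, while STM in d14-7 spans -0.77 to -0.15.

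The genes whose log2 CPM followed each member most closely over the 16 libraries were named by the highest Pearson r, as a description, since all genes share libraries, depth and genotype. They were HB16 for STM (0.968), LSH6 for KNAT1 (0.969), RABE1e for KNAT2 (0.974), MYB28 for KNAT6 (0.966), AT1G24050 for ATH1 (0.979), YSL2 for PNY (0.961), AT5G09463 for PNF (0.936), AT1G77790 for WUS (0.801) and ATSBT5.2 for CLV1 (0.932). HAM3, from the list of WUS partners, was also among the 3 nearest to CLV1 (0.92). No member was among the 3 nearest of another member, although STM and PNY followed each other at 0.95 and STM and KNAT6 at 0.9.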

How the data were processed

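Poly(A) RNA of 16 libraries was made with a NEBNext Ultra kit, which does not mark strand, per the labels' protocols. The authors deposited estimated counts (expected counts) for 41671 transcript models, already whole numbers, and a table of normalized signal, which was used only to check scaling: 98.04% of ratios of the deposited count to that signal lay within 1% of their column's median. TAIR10 and DESeq2 are named in the submitters' processing notes. No source used here names the aligner or quantifier.

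Counts were summed to 33602 loci, of which 32835 matched the RefSeq annotation of TAIR10.1. edgeR 4.0.16 in R 4.3.3 (TMM, filterByExpr, glmQLFit with robust estimation, glmQLFTest) was fitted to all 16 libraries with 4 genotype means, and Benjamini-Hochberg adjustment ran over 20947 loci. CPM used TMM-scaled library sizes, and log2 CPM a prior count of 2. Alternatives were other scaling, filters, DESeq2 1.42.0, limma-voom (limma 3.58.1), covariates, feature level and left-out libraries. The members and 13 further lists were chosen with earlier results of these data known. Named genes were the members, the targeted genes, up to 4 called genes per list and comparison by smallest adjusted p, and the 3 loci with the highest Pearson r to each member. Libraries came from separately pooled plants, and p-values measure the spread between pools. No 2 libraries of a group agreed within sampling noise (chi-square per gene 4.68 to 98.7).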

Additional observations from a re-analysis of the deposited data

How the results depend on the processing

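Across the members and 6 comparisons, 387 of 432 results with 1 library left out and 517 of 586 under the other alternatives kept their direction and side of the threshold, 19 and 20 lost their call, 10 and 29 gained one, and 16 and 20 turned. The cause of these changes was not tested. After adjustment for the leaf score, loci changed were 2663, 9327 and 7230 in d14-7, the ckx3 ckx5-labelled libraries and scl28 against WT, and 4993 and 4527 in d14-7 against the ckx3 ckx5-labelled libraries and scl28. Members changed were then 7 in the ckx3 ckx5-labelled libraries against WT and 6 in scl28 against them. That covariate turned KNAT1 to 0.02 in d14-7 against WT, KNAT2 to -0.09 in the ckx3 ckx5-labelled libraries against WT, and STM, KNAT6 and PNY to -0.07, -0.01 and -0.05 in scl28 against WT. It turned STM, KNAT6, PNY and WUS to 0.31, 0.10, 0.06 and -0.23 in d14-7 against the ckx3 ckx5-labelled libraries, and KNAT1, PNF and WUS to 0.53, 0.17 and -0.09 in d14-7 against scl28. With only the groups compared in the model, loci changed were 5034 in d14-7 and 2171 in scl28 against WT, and members changed were 1 in scl28 against WT, 8 in d14-7 and 5 in scl28 against the ckx3 ckx5-labelled libraries. Against WT replicates 1 and 2 alone, a setting chosen after seeing the data, loci changed were 2310 in d14-7 (3 members) and 3802 in the ckx3 ckx5-labelled libraries (1 member), PNY turned to 0.03 there and KNAT1 and PNF to 0.05 and 0.09 in scl28. Against WT replicates 3 and 4 alone, likewise added, 7 members changed in the ckx3 ckx5-labelled libraries, where KNAT2 turned to -0.17, and 7329 loci changed in scl28, where STM, KNAT6 and PNY turned to -0.12, -0.05 and -0.08. Without a low-count filter WUS turned to -0.01 in d14-7 against the ckx3 ckx5-labelled libraries.

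With 1 library left out, loci changed ranged from 5026 (without WT replicate 4) to 10355 (without WT replicate 1) in d14-7 against WT. Members changed ranged from 3 to 7 in the ckx3 ckx5-labelled libraries against WT, 3 to 5 in d14-7 and 3 to 5 in scl28 against them. KNAT2 and WUS in the ckx3 ckx5-labelled libraries against WT ranged from -0.09 to 0.14 and -0.53 to 0.01, and STM, PNY and PNF in scl28 against WT from -0.04 to 0.24, -0.03 to 0.16 and -0.18 to 0.03. WUS ranged from -0.22 to 0.35 in d14-7 and -0.56 to 0.18 in scl28 against the ckx3 ckx5-labelled libraries, and from -0.07 to 0.58 in d14-7 against scl28. With the replicate number as a block, 6, 4 and 2 members changed in d14-7, the ckx3 ckx5-labelled libraries and scl28 against WT. Deviations of same-numbered libraries did not correlate in every pair (r from -0.28 to 0.34) and 4 of 16 libraries correlated best with their own number, so the replicate numbers of the sample titles, which the block used, were not taken to pair libraries. The library names carry other numbers, and libraries that share one (2 or 3 pairs a comparison) did not all correlate above 0.1 in any comparison either (r from -0.28 to 0.19). PNY in d14-7 against the ckx3 ckx5-labelled libraries was the 1 member whose call the block ended (adjusted p = 0.0563). Depth limits WUS and CLV3, each with at most 19 counts in a library.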
